A study of Homo sapiens with 8 samples.

Results

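EBF1, POU2AF1, CD79A, CD79B, IGLL1 and BLNK are genes of the B lineage whose transcripts were looked for in DND41 cells, an established human line of T-cell acute lymphoblastic leukemia (T-ALL). These 6 genes were chosen by their symbols, as B lineage factors and parts of the pre-B receptor that are expressed in this T-cell line, so that their presence above background is a property of the choice and not a finding. They were also chosen with earlier results of these data known, so that their counts beside the shares of all genes are a description. Values were found for 5 of the 6, out of 18133 gene rows in all, and BLNK was not analysed here. All 5 were among the 13885 genes that averaged 10 or more normalized counts over the libraries, the minimum for a test. A normalized count is the authors' abundance of a gene after scaling for library depth. The cells carried a short hairpin RNA (shRNA) that doxycycline switched on, and RNA was taken after 72 h of doxycycline in every group, the control included. One hairpin construct against SIRT1, labelled sh1, gave 3 libraries (A, B and C), the construct labelled sh3 gave 3 libraries (A, B and C), and the control shRNA gave 2 libraries (A and C). SIRT1 is a nuclear protein deacetylase that depends on NAD. Whether each construct was carried by a clone or a pool of cells is not given in the sources used, and nothing states that replicates came from separate infections. The p-values therefore reflect the variation among these cultures only, which may be technical.

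In the B lineage, EBF1 is a transcription factor that opens and activates genes of early B cells, among them those of the pre-B receptor. POU2AF1 encodes a co-activator that is recruited by octamer-binding factors at immunoglobulin and other B-cell promoters. The pre-B receptor joins an immunoglobulin mu heavy chain to a surrogate light chain, which consists of the products of IGLL1 (lambda5) and VPREB1, and signals through the CD79A and CD79B chains. CD79A and CD79B form a heterodimer whose tails carry tyrosine activation motifs, and BLNK is the adaptor that links the activated receptor to downstream enzymes. CD79A protein is also known from some T-cell leukemias.

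Sequences from the 250 bases before the RefSeq starts of EBF1, CD79A and IGLL1 are shown. The first gene encodes a factor of this set, and the others belong to the genes that such factors are known to act on. The sequences are RefSeq promoters on GRCh38.p14, printed 5′ to 3′ on the strand of the gene and limited to bases outside annotated exons. Between the printed stretch and the RefSeq start, 159 bases of CD79A, 18 of IGLL1 and 0 of EBF1 lay in annotated exons and are not printed. Positions below are counted from the RefSeq start. Capitals mark matches to a searched motif.
EBF1 (chr5:159097957-159098206, minus strand): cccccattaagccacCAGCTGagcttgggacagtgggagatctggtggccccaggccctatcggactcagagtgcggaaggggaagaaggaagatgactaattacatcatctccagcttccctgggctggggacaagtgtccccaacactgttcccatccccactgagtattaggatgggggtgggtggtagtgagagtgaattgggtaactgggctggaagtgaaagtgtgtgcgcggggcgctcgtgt
CD79A (chr19:41877029-41877119, plus strand): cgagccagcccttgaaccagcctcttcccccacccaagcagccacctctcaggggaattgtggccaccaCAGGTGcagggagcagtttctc
IGLL1 (chr22:23580309-23580540, minus strand): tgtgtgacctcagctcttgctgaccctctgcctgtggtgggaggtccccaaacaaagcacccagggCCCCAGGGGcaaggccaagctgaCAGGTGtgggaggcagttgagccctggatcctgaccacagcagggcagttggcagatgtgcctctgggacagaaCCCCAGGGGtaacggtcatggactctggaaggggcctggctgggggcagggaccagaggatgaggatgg
Both strands of the 250 bases before each start were searched for the octamer ATTTGCAT, the EBF core CCCNNGGG and the E boxes CAGCTG and CACCTG. The IGLL1 promoter held the EBF core in 2 stretches, each of which matches at 2 overlapping offsets, the first at positions -184 and -183 and the next at -87 and -86 from the start. Among 35116 promoters of that length, 17.1% held this core. An E box stood at -235 in the EBF1 promoter (CAGCTG, in 14.0% of all promoters), at -181 in that of CD79A and at -161 in that of IGLL1 (CACCTG on the other strand in both, in 17.5% of all promoters). The octamer was not among these letters in any of the 3 windows and stood in 1.63% of all promoters. POU2AF1 and CD79B are named only.

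After the authors' scaling the libraries were alike in total, between 33087820 and 34072666 normalized counts, which says nothing of their depth in reads. SIRT1 itself was at 1745 and 1920 normalized counts in the controls, between 1259 and 1329 with sh1 and between 1099 and 1217 with sh3, so that every library with a SIRT1 hairpin lay below both controls (log2 change -0.57 ± 0.063, SE, limma adjusted p = 0.00030). The call with sh1 alone (adjusted p = 0.0029) was at an adjusted p of 0.051 without control C. The labels of sh3 C contradict each other, as its title and genotype give a SIRT1 hairpin and its description a control. Its Spearman coefficient over genes was at least 0.9955 with sh3 A and B and at most 0.9925 with the controls. It was analysed as sh3, and leaving it out changed the call of none of the 5 B lineage genes in any comparison.

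The 5 genes fell into a pair of very abundant transcripts and 3 of moderate level. Levels are compared between genes as normalized counts per kilobase of the longest annotated coding transcript, a scale used only in this paragraph and for the ratios below. In the controls (n = 2, SD) CD79A, the alpha chain of the receptor, was highest at 19752 ± 966 per kilobase, rank 89 from the top among 18020 genes with a length. The surrogate light chain gene IGLL1 was next at 12504 ± 733, rank 137. POU2AF1 stood at 507 ± 11.0 (rank 4816), CD79B at 355 ± 17.0 (rank 6053) and EBF1 at 171 ± 0.6 (rank 8190). No neighbours in this order overlapped among the control libraries. For comparison among the T-cell receptor genes of these cells, CD3D was at 19000 ± 520, CD3E at 16259 ± 895 and TRBC1 at 15892 ± 207 per kilobase, while CD3G at 3074 ± 32.0 and CD247 at 2902 ± 133 lay far below CD79A and TRBC2 was at 5.4. With sh1 (n = 3) CD79A was at 14621 ± 668 and IGLL1 at 13752 ± 1137, and with sh3 (n = 3) at 18953 ± 636 and 18172 ± 542, so that on this length the top pair did not differ beyond its spread in either knockdown group. The 3 lower genes kept their order, with POU2AF1 at 574 ± 39.4, CD79B at 323 ± 22.9 and EBF1 at 188 ± 8.7 with sh1, and 744 ± 56.5, 524 ± 14.2 and 278 ± 14.9 with sh3. The levels depend on the length chosen. With the median coding transcript length, the controls were at 27231 per kilobase for CD79A, 13935 for IGLL1, 507 for POU2AF1, 360 for CD79B and 266 for EBF1, the same order, but CD79A then stood above IGLL1 in both knockdown groups (20157 against 15326 with sh1, 26129 against 20251 with sh3) and below CD3D in the controls (34368). These levels are a description, since the genes were chosen as expressed.

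**Figure D1:**
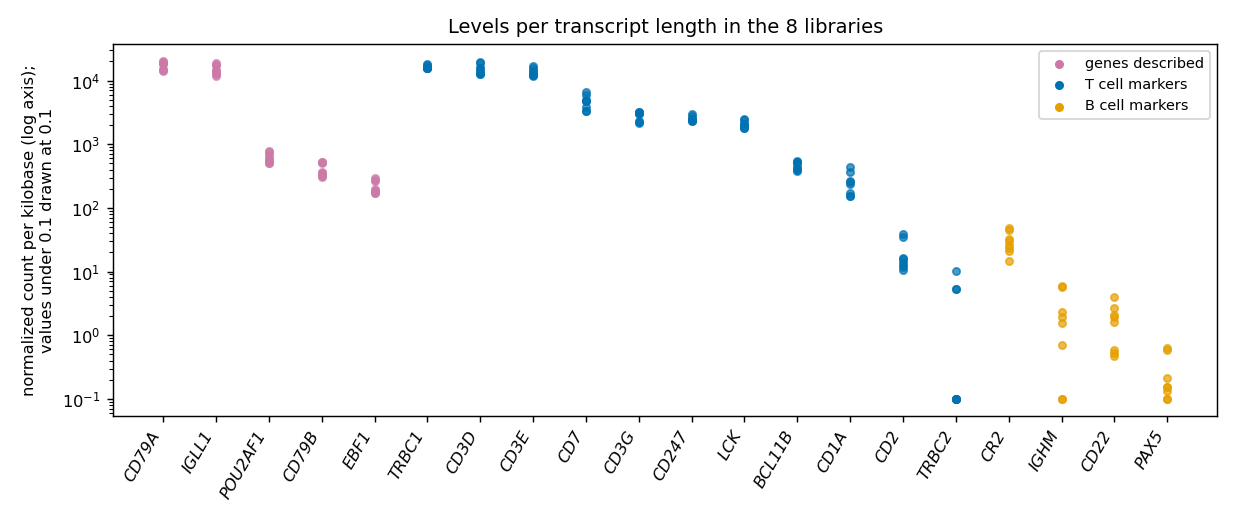
Levels per transcript length, in normalized counts per kilobase on a log axis, for the 5 genes described and for T-cell and B-cell markers, with a point per library coloured by gene set and values under 0.1 drawn at 0.1. CD79A and IGLL1 lie near TRBC1, CD3D and CD3E and above CD3G and CD247, and among the B-cell markers CR2 is highest and PAX5 lowest.

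Of the other B lineage genes looked at, 44 of 60 with a row reached the minimum for a test, and several that define B cells did not. PAX5, the factor that commits cells to the B lineage, was between 0 and 5.49 normalized counts in the 8 libraries. CD22 was between 1.52 and 13.0 and VPREB3, a relative of the other surrogate light chain gene, between 0 and 4.54. IGHM, the mu heavy chain gene that would complete a pre-B receptor, was listed at 0 in both controls and between 1.17 and 9.95 in the knockdown libraries. IGLL5, which resembles IGLL1, was between 0 and 11.5 normalized counts. Of 8 B-cell markers 5 had a row and 2 reached the minimum for a test. Their summed level was 221 to 243 normalized counts in the controls, 138 to 178 with sh1 and 120 to 144 with sh3, most of it from CR2. The sum was lower in every knockdown library than in both controls, and the part of this in the results below was not tested.

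Against the control, the knockdown as a whole (mean of sh1 and sh3, weighted equally) had more EBF1, POU2AF1 and IGLL1 transcript and less CD79A transcript. These are 3 of 5 higher, where 6.55% of all genes tested were called higher, and 1 of 5 lower, where 6.19% of all genes were called lower. A gene was called at an adjusted p under 0.05 in limma, with Benjamini-Hochberg adjustment over the 13885 genes. The constructs differed for all 5 genes. With sh3, EBF1, POU2AF1, IGLL1 and CD79B rose (4 of 5, against 9.36% of all genes called higher), and with sh1 none was called higher (0 of 5 in limma, where 1, POU2AF1, was higher at an unadjusted p under 0.05, against 2.88% of all genes called higher) while CD79A fell (1 of 5, against 3.43% of all genes called lower). All 5 were lower with sh1 than with sh3, in a direct test of the constructs, as were 5.83% of all genes. The median log2 change of the 5 genes was 0.14 with sh1 and 0.55 with sh3, and the median difference of sh1 from sh3 was -0.40, where the medians over all genes tested were -0.00044, 0.00034 and -0.0015. Because the genes were chosen with earlier results of these data known, the shares of all genes are given for scale and test nothing about the set. The 2 control contrasts share their control libraries. The RNA is from bulk cultures, in which fewer or more cells with a transcript and less or more RNA per cell cannot be told apart.

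**Figure D2:**
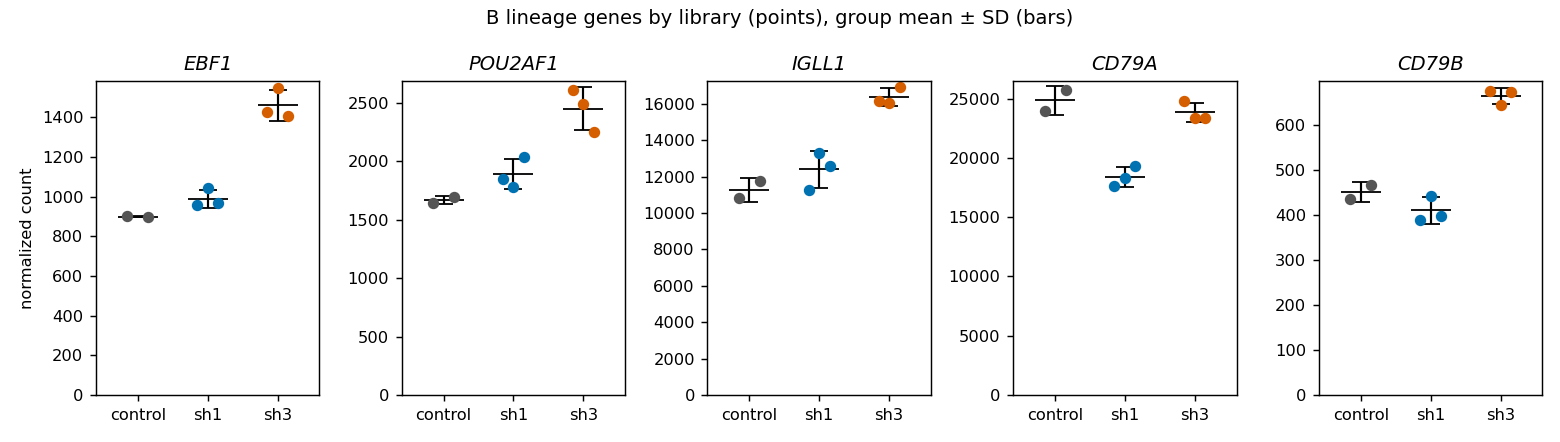
Normalized counts of EBF1, POU2AF1, CD79A, CD79B and IGLL1 in each library, with a panel per gene and its own axis from 0, a point per library and bars for the group mean ± SD. In 4 panels the sh3 points lie above all others, and in the CD79A panel the sh1 points lie below all others.

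EBF1 and POU2AF1, the regulators of the set, moved upward with sh3. EBF1 (chromosome 5, 158695916 to 159099761, minus strand, GRCh38, protein coding) was at 902 and 897 normalized counts in the controls A and C, at 958, 1042 and 969 in sh1 A, B and C, and at 1426, 1551 and 1407 in sh3 A, B and C. The 3 groups did not overlap, with the controls lowest and the sh3 libraries highest. The group means were 899.5 ± 3.17 (SD, n = 2), 989.6 ± 45.6 (SD, n = 3) and 1461 ± 78.1 (SD, n = 3). With sh3 this is a 1.62-fold rise (log2 change 0.70 ± 0.071, SE, limma adjusted p = 1.0e-04), whereas the sh1 change of 0.14 ± 0.071 missed the threshold (adjusted p = 0.29). The difference of sh1 from sh3 was -0.56 ± 0.064 (adjusted p = 0.00020), and the knockdown as a whole gave 0.42 ± 0.064 (adjusted p = 0.0023). The EBF1 locus overlaps the antisense genes AC136424.2 and AC136424.1. The libraries were strand-specific, but no source used here says whether the authors' quantification took account of strand. Overlaps here and below are of whole gene spans and not of exons, so that whether reads were shared is unknown.

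POU2AF1 (chromosome 11, 111352252 to 111455630, minus strand), the co-activator of octamer factors, was at 1645 and 1696 normalized counts in the controls. The sh1 libraries stood at 1851, 1785 and 2035, and the sh3 libraries at 2614, 2495 and 2249. Again the controls were lowest, sh3 highest and no groups overlapped. The means were 1670 ± 36.1 in the controls (SD, n = 2), 1890 ± 130 under sh1 and 2453 ± 186 under sh3 (SD, n = 3 each). POU2AF1 rose 1.47-fold with sh3 (0.55 ± 0.077, SE, limma adjusted p = 0.00077), and its sh1 change of 0.18 ± 0.077 had an adjusted p of 0.20. It was lower with sh1 than with sh3 by a log2 difference of -0.38 ± 0.068 (adjusted p = 0.0047). The call for the knockdown as a whole (0.36 ± 0.068, adjusted p = 0.0067) depended on both controls: it was 0.34 (adjusted p = 0.056) with A left out and 0.39 (adjusted p = 0.065) with C left out. The locus overlaps RNU2-60P, AP002008.3 and AP002008.2.

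IGLL1, the lambda5 part of the surrogate light chain (chromosome 22, 23573125 to 23580308, minus strand), followed the same order. It was at 10800 and 11733 normalized counts in the controls, at 11283, 13305 and 12584 with sh1 and at 16136, 16049 and 16934 with sh3. The sh1 libraries overlapped the controls, since sh1 A lay between them, and all sh3 libraries were higher than the rest. From means of 11266 ± 660 (SD, n = 2), 12391 ± 1025 and 16373 ± 488 (SD, n = 3 each), the rise was 1.45-fold with sh3 (0.54 ± 0.067, SE, limma adjusted p = 0.00035). With sh1 the change was 0.14 ± 0.067 (adjusted p = 0.26), and sh1 differed from sh3 by -0.40 ± 0.060 (adjusted p = 0.0012). The call over both constructs (0.34 ± 0.060, adjusted p = 0.0047) ended without control A (0.28, adjusted p = 0.058). IGLL1 overlaps the antisense gene AP000345.1 and resembles IGLL5 and the lambda constant genes, so that its values are uncertain where reads could be split between such copies.

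Against control the receptor chains were called with different constructs, CD79A lower with sh1 and CD79B higher with sh3. Both were lower with sh1 than with sh3, and the chains were not tested against each other. CD79A (chromosome 19, 41877120 to 41881372, plus strand) was at 23989 and 25708 normalized counts in the controls and at 17609, 18290 and 19281 with sh1. The sh3 libraries were at 24766, 23398 and 23365. All sh1 libraries were below every other library, and the sh3 libraries overlapped the controls. CD79A fell by 26.0% with sh1, from 24848 ± 1215 (SD, n = 2) to 18393 ± 841 (SD, n = 3), a log2 change of -0.43 ± 0.053 (SE, limma adjusted p = 0.00099). With sh3 it was at 23843 ± 800 (SD, n = 3), a change of -0.059 ± 0.053 (adjusted p = 0.48) that turned to 0.025 (adjusted p = 0.73) under quantile normalization. The difference of sh1 from sh3 was -0.37 ± 0.047 (adjusted p = 0.00042). The call over both constructs (-0.25 ± 0.047, adjusted p = 0.0073) ended without control C (-0.20, adjusted p = 0.12). No annotated gene overlaps CD79A.

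CD79B (chromosome 17, 63928740 to 63932354, minus strand), the beta chain, was at 436 and 466 normalized counts in the controls. With sh1 it stood at 389, 443 and 399, and with sh3 at 677, 645 and 675. The sh1 and control libraries overlapped, and all sh3 libraries were above them. The means were 451 ± 21.5 (SD, n = 2), 410 ± 29.1 and 665 ± 18.0 (SD, n = 3 each). CD79B rose 1.47-fold with sh3 (0.56 ± 0.091, SE, limma adjusted p = 0.0019) and changed by -0.14 ± 0.091 with sh1 (adjusted p = 0.41). Its difference of sh1 from sh3 (-0.70 ± 0.081, adjusted p = 0.00025, 1.62-fold lower with sh1) was the largest among the 5 genes. Over both constructs the change was 0.21 ± 0.081 and missed the threshold (adjusted p = 0.11). CD79B overlaps the coding gene AC127029.3 on the same strand, with which reads may be shared.

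**Figure D3:**
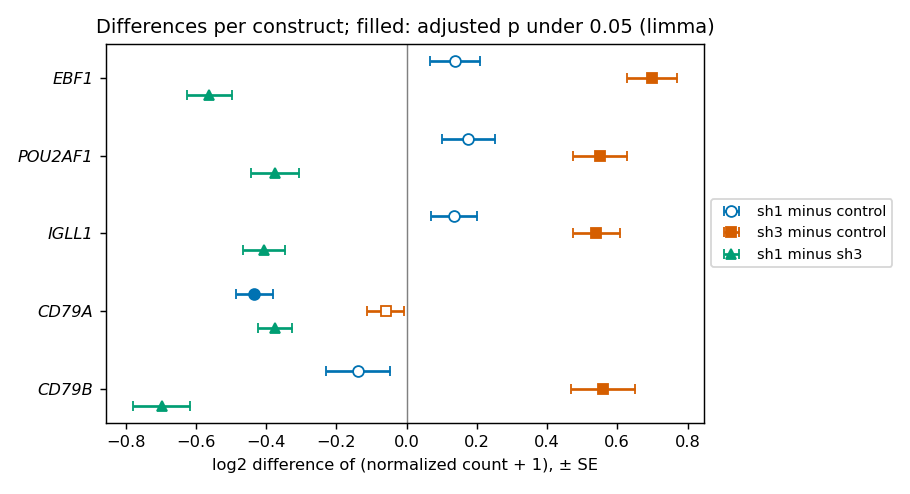
Log2 changes of the 5 genes on the log2(normalized count + 1) scale, with standard errors from limma as bars, for sh1 and sh3 against control and for sh1 against sh3, filled at an adjusted p under 0.05. The sh3 changes of EBF1, POU2AF1, IGLL1 and CD79B lie between 0.54 and 0.70, and all 5 differences of sh1 from sh3 lie between -0.70 and -0.37.

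Counted over libraries, all sh3 libraries lay above both controls in 4 of the 5 genes, as in 24.8% of all genes tested. All sh1 libraries lay below all sh3 libraries in 5 of 5, as in 15.2% of all genes. The pattern of a call upward with sh3, no call with sh1 and a call downward for sh1 against sh3 was met by EBF1, POU2AF1, CD79B and IGLL1, and by 2.91% of all genes.

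Ratios per transcript length within a library, chosen after the values were seen and not tested, describe transcript levels relative to each other. They say nothing of protein, and any reads shared with AC127029.3 would enter the values of CD79B. On the longest transcript CD79A exceeded CD79B by 55.5-fold and 55.6-fold in the controls. With sh1 the ratio was 45.7, 41.6 and 48.7, and with sh3 it was 36.9, 36.6 and 34.9, so that the 3 groups did not overlap. CD79A to IGLL1 was 1.59 and 1.57 in the controls, 1.12, 0.985 and 1.10 with sh1 and 1.10, 1.04 and 0.988 with sh3, lower in every knockdown library than in both controls. With the median length the ratio of CD79A to CD79B was 75.6 to 75.7 in the controls, 56.7 to 66.4 with sh1 and 47.6 to 50.3 with sh3, and that of CD79A to IGLL1 was 1.94 to 1.97, 1.22 to 1.38 and 1.22 to 1.36, so that the sizes moved and the order of the groups did not. The lower CD79A to IGLL1 ratio came with a lower CD79A level with sh1 and a higher IGLL1 level with sh3. IGLL1 to EBF1 overlapped between the groups, at 73.0 ± 4.53 in the controls (SD, n = 2), 72.9 ± 3.73 under sh1 and 65.5 ± 4.93 under sh3 (SD, n = 3 each). POU2AF1 to EBF1 was at 2.96 ± 0.074, 3.05 ± 0.309 and 2.68 ± 0.212.

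**Figure D4:**
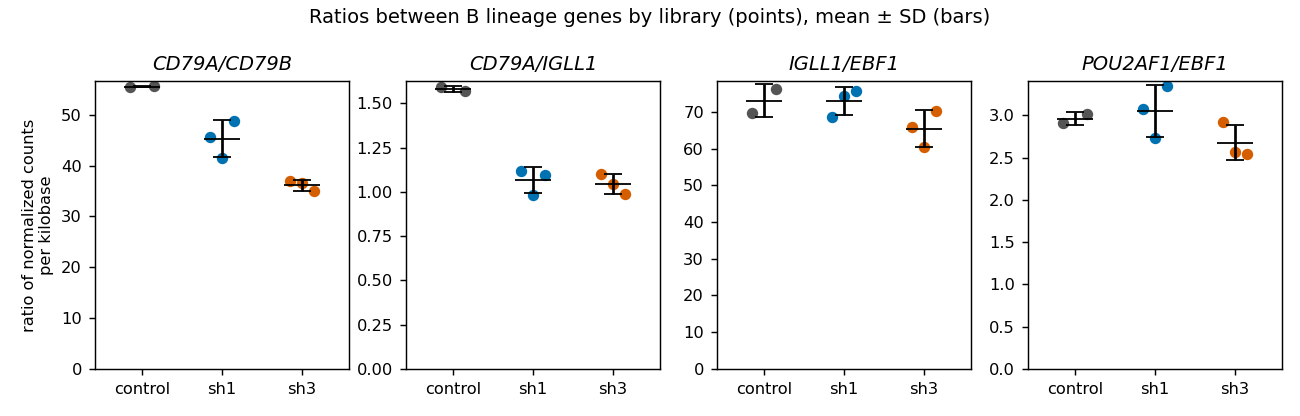
Ratios per transcript length between pairs of the B lineage genes in each library, with a point per library and bars for the group mean ± SD. The ratio of CD79A to CD79B falls into 3 separate groups, highest in the controls and lowest with sh3.

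The wider B lineage lists give the surroundings of these genes. They hold 73 symbols, of which 60 had a row and 44 reached the minimum. Among B lineage transcription factors 13 were tested, and for the knockdown as a whole 1 rose and 0 fell, near the shares of all genes (6.55% higher, 6.19% lower). The riser was SOX4, a factor of early lymphoid progenitors, with mean normalized counts of 18909 ± 466 under the control hairpin (SD, n = 2), 20537 ± 854 under sh1 and 23518 ± 957 under sh3 (SD, n = 3 each; log2 change 0.22 ± 0.046, limma adjusted p = 0.011). LEF1, a factor shared by early B and T cells, was at 17143 ± 238, 17589 ± 300 and 16107 ± 390 and was not called (-0.027, adjusted p = 0.70). FOXO1, which acts beside EBF1 in early B cells, was called higher with sh1 (0.42 ± 0.10, adjusted p = 0.040), a call that ended when any 1 of the 8 libraries was left out (adjusted p up to 0.25). In the list of the surrogate light chain and immunoglobulins only the joining chain gene JCHAIN reached the minimum, and it was not called (0.37 ± 0.20, adjusted p = 0.25).

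Among 20 tested genes of B-cell receptor signalling, 1 rose and 2 fell over both constructs, where 6.55% of all genes were higher and 6.19% lower. CBL, a ubiquitin ligase, had 2683 ± 256 normalized counts in the controls (n = 2), 3363 ± 246 under sh1 and 3335 ± 245 under sh3 (n = 3 each, all SD; 0.32 ± 0.073, limma adjusted p = 0.016). BLK, a SRC family kinase of B cells and thymocytes, went from 1809 ± 50.4 to 1477 ± 67.1 and 1619 ± 46.3 (-0.23 ± 0.056, adjusted p = 0.023). FYN, a SRC family kinase of T cells, went from 7139 ± 202 to 5124 ± 333 and 6102 ± 422 (-0.35 ± 0.061, adjusted p = 0.0043). The most abundant genes of this list, PIK3CD, a lipid kinase subunit (0.11 ± 0.043, adjusted p = 0.11), and PLCG1, a phospholipase (0.082 ± 0.050, adjusted p = 0.31), were not called. Of 10 surface genes 1 fell (6.19% of all genes), the complement receptor gene CR2, from 198 ± 10.7 to 121 ± 20.7 and 87.8 ± 25.1 (-0.96 ± 0.21, adjusted p = 0.014). CD72 and CD83 changed by 0.13 ± 0.080 (adjusted p = 0.30) and 0.00067 ± 0.084 (adjusted p = 0.997). Without control C the calls of SOX4 (0.19, adjusted p = 0.14), CBL (0.22, adjusted p = 0.22), BLK (-0.25, adjusted p = 0.12), FYN (-0.33, adjusted p = 0.078) and CR2 (-0.91, adjusted p = 0.15) ended, and without control A those of BLK (-0.20, adjusted p = 0.15) and CR2 (-1.02, adjusted p = 0.068) did.

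Between the constructs the receptor signalling list leaned the same way as CD79A and CD79B. Of its 20 genes 8 were called lower with sh1 than with sh3 and 0 higher, where 5.83% of all genes were called lower and 5.61% higher. Of the 20 differences 14 were below 0, with a median of -0.19 on the log2 scale, against a median over all genes of -0.0015. PRKCB, a protein kinase C of the receptor pathway, was at 4692 ± 115 in the controls (SD, n = 2), 3831 ± 281 under sh1 and 5011 ± 27.4 under sh3 (SD, n = 3 each), a difference of -0.39 ± 0.053 (limma adjusted p = 0.00074). The adaptor gene GRB2 was at 7887 ± 95.1, 7092 ± 20.9 and 8346 ± 262 (-0.23 ± 0.040, adjusted p = 0.0029). LCP2, the adaptor that takes the place of BLNK in T cells, was at 2830 ± 12.3, 2708 ± 110 and 3350 ± 139 (-0.31 ± 0.051, adjusted p = 0.0025). These 3 were called under every alternative tried. FYN, PLCG2, VAV1, INPP5D and PTPN6 were also called lower, as were SOX4 and IKZF1 among the factors, and each of these 7 calls ended when at least 1 of the sh1 or sh3 libraries was left out. For INPP5D this was sh3 A alone (adjusted p = 0.061), and the highest adjusted p among the 7 was 0.12. These genes are named because they were called, after their values were seen, from a list chosen with earlier results of these data known. FYN and LCP2 are also genes of T cells, so that the lean cannot be read as one of B-cell receptor signalling alone. PTPN6 and PLCG2 were low, with means of 30.4 and 57.3 normalized counts over the libraries. BTK, DAPP1, BANK1 and CLNK of the list were under the minimum for a test. SYK, the kinase that docks on phosphorylated CD79 tails, had the lowest difference of the list (-2.10 ± 0.62) and was not called (adjusted p = 0.051). It was at 8.87 and 3.51 normalized counts in the controls, at 7.36, 5.28 and 1.62 with sh1 and at 48.4, 11.8 and 16.3 with sh3, so that sh3 A stood above the rest. Over the 4 lists together 10 of 44 were lower and 1, FOXO1, was higher (0.43 ± 0.093, adjusted p = 0.013, and 0.053 without sh3 B), with a median of -0.14.

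**Figure D5:**
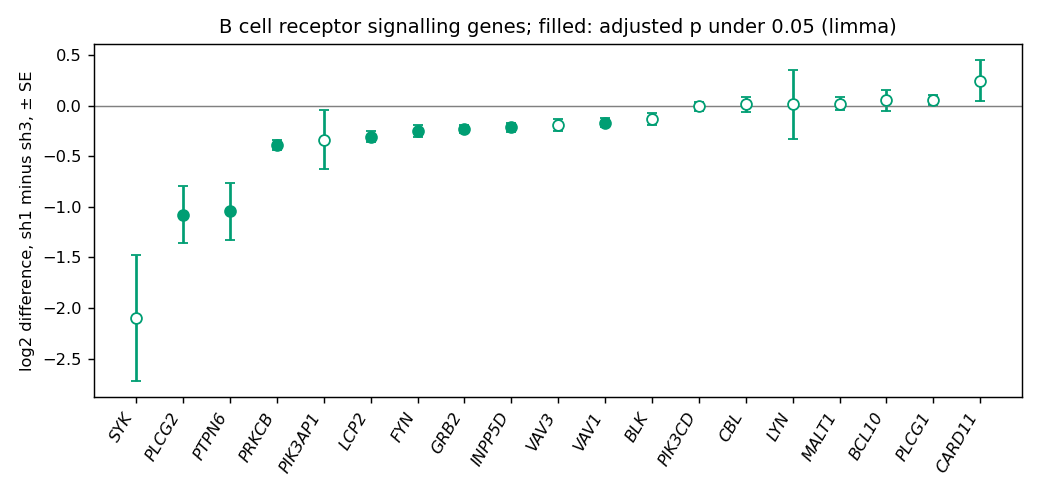
Log2 differences of sh1 from sh3 for 19 of the tested genes of B-cell receptor signalling, with standard errors from limma as bars and filled points at an adjusted p under 0.05. Of the 19 genes drawn 13 lie below 0, and the 8 filled points are all among them.

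Markers of other cell types were read beside these changes. Of 13 T-cell markers 10 were tested, and 8 fell and 1, BCL11B, rose over both constructs, where 6.19% of all genes were lower and 6.55% higher. Of the 8 falls 7 were called without control A and 5 without control C, and the rise of BCL11B (0.26, limma adjusted p = 0.044) was lost without either control (0.35, adjusted p = 0.054, and 0.17, adjusted p = 0.38) and without sh1 C or any sh3 library (0.25 to 0.26, adjusted p = 0.051 to 0.081). The summed level of the T-cell markers was 86939 to 90653 normalized counts in the controls, 75369 to 78996 with sh1 and 67934 to 68587 with sh3. It went down in both knockdown groups, furthest with sh3, where 4 of the 5 genes described rose. Between the constructs CD3D, CD3G, CD7 and CD1A were called higher with sh1 than with sh3 (4 of 10, against 5.61% of all genes). BCL11B was called lower (1 of 10, against 5.83%). TRBC1 was not called with sh3 against control (0.0095, limma adjusted p = 0.92). Markers of plasma cells summed to 25147 to 26750 in the controls, 21470 to 22859 with sh1 and 22851 to 23361 with sh3, lower in every knockdown library. Most of this sum came from XBP1 and MZB1. Over both constructs MZB1 (-0.31, limma adjusted p = 0.0045) and XBP1 (-0.17, adjusted p = 0.016) were called lower. The other 3 tested changed upward and were not called: SDC1 (0.69, adjusted p = 0.22), JCHAIN (0.37, adjusted p = 0.25) and PRDM1 (0.19, adjusted p = 0.36). With control C left out MZB1 was at -0.26 (adjusted p = 0.090) and XBP1 at -0.13 (adjusted p = 0.21). Markers of NK cells, most of their sum from NKG7, were at 770 to 786 in the controls, 689 to 827 with sh1 and 843 to 943 with sh3, highest with sh3. With sh3 against control NKG7 (0.24, limma adjusted p = 0.085) and KLRD1 (-0.14, adjusted p = 0.82) were not called, and GNLY was under the minimum for a test. NKG7 was called lower with sh1 than with sh3 (-0.30, limma adjusted p = 0.033), a call that ended without sh1 A, sh1 B or any sh3 library (-0.31 to -0.23, adjusted p = 0.074 to 0.10). Markers of adherent cells summed to 833 to 863 in the controls, 577 to 705 with sh1 and 623 to 776 with sh3, most of it from PECAM1 (-0.42 over both constructs, limma adjusted p = 0.023), whose change was -0.44 (adjusted p = 0.099) with control A left out and -0.40 (adjusted p = 0.17) with control C left out. Of the 6 adherent cell markers 4 were under 10 on average, and KRT8, the other one tested, was not called (0.18, limma adjusted p = 0.73). Markers of plasmacytoid dendritic cells, most of their sum from TCF4, were at 1394 to 1547 in the controls, 1315 to 1477 with sh1 and 1315 to 1903 with sh3. Myeloid markers summed to between 26.6 and 93.9 normalized counts, with 7 of 8 under 10 on average, and erythroid markers to between 10.5 and 24.5, with 3 of 3 under 10. The part of these markers in the results was not tested.

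The genes with the most similar pattern over the 8 libraries were taken by Pearson correlation of log2 values among 11398 genes whose mean was 50 or more. Such a correlation is a description, because the libraries share 3 groups and any gene that separates the groups alike scores high. For EBF1 they were B3GNT2 (0.993), CMPK2 (0.991) and SERPINB2 (0.989). POU2AF1 was most like HES1 (0.988), ZNF692 (0.987) and TESK1 (0.986), and IGLL1 most like CMTM8 (0.979), LIMA1 (0.978) and RRP7BP (0.977). For CD79B the closest were TTC30B (0.983), NUFIP2 (0.977) and BIRC3 (0.976). CD79A was closest to TRAM1 (0.978), GYPC (0.977) and LAPTM5 (0.977). Among the 5 genes themselves EBF1 was at 0.955 with IGLL1, 0.925 with POU2AF1 and 0.921 with CD79B, and CD79A was at 0.253 to 0.627 with the others.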

How the data were processed

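Per the labels' protocols, strand-specific libraries were made from RNA of DND41 cultures. Samples were grouped by their titles, and no control B was used here. Each deposited value is a signal, the normalized count of a gene symbol, and kallisto 0.44.0, DESeq and the build hg38 are named per the submitters' processing notes. The sources used here do not give the annotation, the gene summary or a filter. Only 23.8% to 43.2% of a library's low values were whole multiples, to within 0.02 steps, of its lowest step, so that whole reads could not be recovered and no test for counts was used.

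Values were analysed as log2(value + 1), a scale that understates the change of low genes. Genes with a mean under 10 (4248 of 18133) were removed. A single limma 3.58.1 model (R 4.3.3) held the 3 group means with a common residual spread and a variance prior that followed the mean. Contrasts set sh1, sh3 and their mean against control, and sh1 against sh3. All tests were two-sided, with Benjamini-Hochberg adjustment over the genes tested and calls at an adjusted p under 0.05. Alternatives changed the pseudocount, the filter, the scaling, the variance prior, the groups fitted, the replicate block and the libraries.

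Coordinates and lengths are from GENCODE release 29 on GRCh38. The genes and lists were chosen with earlier results of these data known. A gene of these lists is not reported here, and counts and sums include it. Named by rule were the genes described, SIRT1 and the 3 genes most like each gene described. Of each B lineage list the genes called over both constructs (at most 6) and the 2 most abundant were also named by rule. Further list genes, among them PAX5, CD22, IGHM, FOXO1, SYK and PRKCB, were named outside this rule, with their values seen. Nothing states that letters pair libraries, so that letters were not taken as pairs. Deviations of same-letter libraries from their group means correlated at -0.062 to 0.058 over 7 pairs. With 2 or 3 libraries per group this cannot exclude a shared batch.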

Additional observations from a re-analysis of the deposited data

Results flagged for a closer look

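The 5 genes stood out because the response to a SIRT1 hairpin differed between the constructs by a direct test in limma. The log2 difference of sh1 from sh3 was -0.56 for EBF1, -0.38 for POU2AF1, -0.37 for CD79A, -0.70 for CD79B and -0.40 for IGLL1, each with all 3 sh1 libraries below all 3 sh3 libraries. For EBF1, POU2AF1, CD79B and IGLL1 the change from control was called with sh3 and not with sh1, and for CD79A with sh1 and not with sh3. Of all genes tested, 11.4% were called between the constructs, and 5.83% were called lower with sh1 than with sh3. In 15.2% of all genes every sh1 library lay below every sh3 library. A call upward with sh3, no call with sh1 and a call downward for sh1 against sh3 were met together by 2.91%. These shares are a description, as the genes were chosen with earlier results of these data known.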

How the results depend on the processing

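Of 20 changes (5 genes in 4 comparisons) 16 kept their direction and their side of the threshold under every alternative, among them all 5 differences between the constructs, the 4 rises with sh3 and the fall of CD79A with sh1. Over all 20 changes 348 of 355 alternatives did so. Under quantile normalization the CD79A change with sh3 turned to 0.025 (adjusted p = 0.73). With a variance prior without trend the knockdown changes of CD79A (-0.25, adjusted p = 0.058) and IGLL1 (0.34, adjusted p = 0.053) missed the threshold, and 744 genes were called over both constructs, 236 with sh1, 1531 with sh3 and 968 between the constructs, against 1768, 876, 2576 and 1589. The sh1 count was 462 when only sh1 and control were fitted. With the replicate block it was 549, and the block changed no call of the 5 genes. The cause of these shifts was not tested. Leaving out a library in turn gave 339 to 1898 calls over both constructs, 159 to 782 with sh1, 860 to 2931 with sh3 and 925 to 1770 between the constructs, and knockdown changes of -0.30 to -0.20 for CD79A, 0.28 to 0.40 for IGLL1 and 0.34 to 0.39 for POU2AF1. Where a control was left out, the other control stood alone and was assumed to vary like the other groups. With 2 controls the knockdown calls of CD79A, IGLL1 and POU2AF1 are the least firm. The depth in reads is unknown, so that values near the floor, such as those of PAX5 and IGHM, allow no comparison.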
